A study of Mus musculus with 6 samples.

Results

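The class I antigen presentation pathway was followed through 10 genes, picked by symbol from the count table: the heavy chains H2-K1 and H2-D1, their light chain B2m, the peptide transporter genes Tap1 and Tap2, the loading factor gene Tapbp, the inducible proteasome subunit genes Psmb8, Psmb9 and Psmb10, and the regulator gene Nlrc5. All 10 were found among the 54532 genes of the table, each once, and all 10 were among the 14246 genes with enough reads to test. RNA had been sequenced from immortalized epicardium-derived cardiosphere-derived cells (iECDCs), a line grown from the heart ventricle epicardium of 6-week-old C57BL/6 mice and kept dividing by human telomerase (hTERT) delivered in a lentivirus under the CMV promoter, so that control and induced cells carried the same transgene. The 3 control libraries were made at passage 30 from cells that the labels set against drug-treated ones, and the 3 induced libraries, also made at passage 30, from cells given 10 µM 5-azacytidine, an inhibitor of DNA methylation, for 3 days and then kept, according to the labels, in IMDM with 2% FBS for 4 weeks. The methods of the study give another medium and a shorter culture after the drug, and describe routine growth of the line in IMDM with a much larger share of serum. Neither source names the medium or the culture time of the control cells that were sequenced, so drug, serum and time in culture cannot be told apart. The labels state that RNA came from 3 separate samples per group of a single line, without saying whether these were separate cultures, whereas the methods of the study give fewer replicates per condition than the 3 analysed here. The p-values measure only the spread between these samples, which may be technical.

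Class I molecules display peptides from inside the cell to CD8 T cells and to natural killer cells. Proteasomes cut proteins into peptides, the TAP1-TAP2 transporter moves them into the endoplasmic reticulum, and tapasin, the product of Tapbp, holds empty class I molecules at the transporter until a peptide is bound. Interferons raise much of the pathway through IRF factors, and NLRC5 raises it by joining the RFX, CREB/ATF and NF-Y proteins that sit on the SXY module of class I promoters.

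Of the 10 genes, 8 rose in induced iECDCs, 7 of them at least 2-fold. Heavy chains, light chain and Nlrc5 rose most, Tap1, Tapbp and Psmb9 less, and Tap2 least, while Psmb10 fell and Psmb8 did not pass the test. A gene was called where the quasi-likelihood test of edgeR gave a p under 0.05 after Benjamini-Hochberg adjustment over all tested genes. Libraries held 19041133 to 19823369 counted reads, and induced library 2 differed most from the others of its group. The comparison moved much of the transcriptome, with 64.8% of tested genes called, 32.6% called higher and 32.2% called lower, and 9.29% called higher by at least 2-fold. The median log2 fold change was 1.36 over the 10 genes and -0.01 over all tested genes. Every induced library lay above every control library for 8 of the 10 genes, against 34.1% of tested genes, and below for 1, against 34.5%.

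Promoter sequence is shown first for 6 of these genes: H2-K1, H2-D1, B2m and Tap1, which rose, and Psmb8 and Psmb10, which did not. They were picked with these values known, and a link between the letters and the changes was not tested. RefSeq promoter windows of the build GRCm38.p6 were found for 8 of the 10 genes, all but Tap2 and Nlrc5. Each is taken here as the 250 bases upstream of the RefSeq start. Capitals mark the motifs searched on both strands, namely the interferon response element core GAAANNGAAA, an NF-kB site of the enhancer A type GGGGANNCCC, the X2/CRE core TGACG, the CCAAT box and the GAS element TTCNNNGAA. On the opposite strand TGACG reads CGTCA and CCAAT reads ATTGG.
H2-K1 (chr17:34000334-34000583, minus strand): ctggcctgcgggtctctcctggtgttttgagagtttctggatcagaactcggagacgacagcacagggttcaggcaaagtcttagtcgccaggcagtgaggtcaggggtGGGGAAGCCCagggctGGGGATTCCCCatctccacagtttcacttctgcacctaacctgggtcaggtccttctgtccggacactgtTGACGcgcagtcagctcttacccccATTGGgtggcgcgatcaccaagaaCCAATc
H2-D1 (chr17:35262844-35263093, plus strand): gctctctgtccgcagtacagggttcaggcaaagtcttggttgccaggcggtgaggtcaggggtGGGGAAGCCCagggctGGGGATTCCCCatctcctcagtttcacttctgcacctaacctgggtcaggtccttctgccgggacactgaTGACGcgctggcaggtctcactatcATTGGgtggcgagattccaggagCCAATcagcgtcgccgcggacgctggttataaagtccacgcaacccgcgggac
B2m (chr2:122147437-122147686, plus strand): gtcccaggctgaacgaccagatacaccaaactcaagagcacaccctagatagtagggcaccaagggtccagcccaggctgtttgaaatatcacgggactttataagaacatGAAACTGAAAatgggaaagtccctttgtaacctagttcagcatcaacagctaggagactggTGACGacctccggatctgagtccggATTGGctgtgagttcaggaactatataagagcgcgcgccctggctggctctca
Tap1 (chr17:34187306-34187555, plus strand): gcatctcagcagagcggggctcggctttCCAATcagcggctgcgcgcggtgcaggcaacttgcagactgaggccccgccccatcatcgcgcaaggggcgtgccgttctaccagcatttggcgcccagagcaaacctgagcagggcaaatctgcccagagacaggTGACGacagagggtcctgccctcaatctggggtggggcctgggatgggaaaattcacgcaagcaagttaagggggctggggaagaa
Psmb8 (chr17:34197945-34198194, plus strand): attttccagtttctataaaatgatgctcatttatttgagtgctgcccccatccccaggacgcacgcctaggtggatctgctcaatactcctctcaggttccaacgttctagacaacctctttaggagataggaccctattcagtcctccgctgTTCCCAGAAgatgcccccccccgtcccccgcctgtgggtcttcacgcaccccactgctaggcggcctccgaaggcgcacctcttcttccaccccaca
Psmb10 (chr8:105938393-105938642, minus strand): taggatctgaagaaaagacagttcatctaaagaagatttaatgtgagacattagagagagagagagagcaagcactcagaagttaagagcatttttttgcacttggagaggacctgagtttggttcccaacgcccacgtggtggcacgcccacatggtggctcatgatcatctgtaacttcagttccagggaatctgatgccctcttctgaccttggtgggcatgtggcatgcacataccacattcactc
The RefSeq start used for H2-D1 lay 364 bases, and that for Psmb8 474 bases, from the start of the gene in the count table, and for the other 4 windows shown the distance was at most 52 bases. For the windows of Psmb9 and Tapbp, searched but not shown, it was 434 and 3579 bases. The windows of H2-D1, Psmb8, Psmb9 and Tapbp lay inside the gene as counted. Bases upstream of the start of these genes in the count table were therefore not searched, and a motif missing from a window is missing from those bases only. Neighbouring starts also made the Tap1 window largely that of Psmb9, read from the other strand, with 225 of 250 bases shared.

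TGACG was present in the windows of H2-K1, H2-D1, B2m, Tap1 and Psmb9, and in 17.8% of all 32851 promoters of the table. CCAAT was present in the same 5 genes and in Tapbp, and in 33.8% of all promoters. Both motifs together were held by 6.12% of all promoters, and neither was present in the windows of Psmb8 and Psmb10. Other tested heavy chain genes with a window were all called higher, and held both motifs or CCAAT alone. H2-Q7 (log2 fold change 5.05), H2-Q4 (2.17), H2-T22 (0.57) and H2-M3 (0.23) held both motifs. H2-Q6 (7.90, from 1 control read in all) and H2-T23 (1.65) held CCAAT without TGACG. In H2-K1, H2-D1 and B2m, TGACG was followed by ATTGG with 25 bases between the first letter of the one and that of the other, a spacing found in 30 promoters in all, or 0.0913%. This spacing was looked for after the windows had been seen. Among the 12 other class I heavy chain genes with a window it was present in 1, H2-M3. The enhancer A letters occurred in H2-K1 and H2-D1, with 3 matches each of which 2 overlapped, in the other heavy chain genes H2-Q6 and H2-Q7, and in 1.41% of all promoters. The interferon response element core occurred in B2m, in the other heavy chain genes H2-T22 and H2-T23, and in 2.98% of all promoters, and GAS occurred in Psmb8 and in 7.02%. A match is a description of the letters, and binding was not measured. Only exact matches were marked, so a window without a mark may still hold a variant of an element. This applies also to the interferon element in the windows of H2-K1 and H2-D1. Aligned over their windows, H2-K1 and H2-D1 were identical at 187 of 204 positions. The number of CpG dinucleotides, the sites that DNA methylation uses, was 9 in the H2-K1 window, 14 in H2-D1, 8 in B2m, 14 in Tap1, 10 in Psmb8 and 3 in Psmb10, against a median of 6 over all promoters. Methylation was not measured in these files.

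Both heavy chains of the class I molecule and its light chain rose. Levels are given as reads per 1000000 counted reads (CPM), on TMM-scaled library sizes, as mean ± SD over 3 libraries per group. H2-K1, which encodes a classical heavy chain (ENSMUSG00000061232, mm10 chr17:33996017-34000333, minus strand), was read at 199, 183 and 193 CPM in control libraries 1 to 3 and at 984, 883 and 951 CPM in induced libraries 1 to 3. The lowest induced library was thus far above the highest control library. Its mean went from 192 ± 7.88 to 939 ± 51.9 CPM, a log2 fold change of 2.29 (SE 0.05, adjusted p = 6.88e-17, edgeR). In bulk RNA, more cells that express a gene and more RNA per cell cannot be told apart, here and for every gene described.

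H2-D1, the other classical heavy chain gene of this strain (ENSMUSG00000073411, chr17:35262730-35267499, plus strand), was read at 185, 173 and 177 CPM in control and at 1065, 956 and 1053 CPM in induced libraries. All induced libraries again lay above all control libraries, and the log2 fold change was 2.52 (SE 0.05, adjusted p = 2.15e-17, edgeR). Per length of transcript, in the deposited FPKM, the pair stood close together in control cells, at 72.8 ± 3.09 FPKM for H2-K1 and 68.5 ± 2.46 FPKM for H2-D1, and the ranges of the libraries overlapped. In induced cells the order was turned, at 360 ± 20.4 FPKM for H2-K1 and 397 ± 23.7 FPKM for H2-D1, with ranges that still overlapped between libraries. Within a library the order was sharper, since H2-D1 made up 48.2 to 48.8% of the summed FPKM of the pair in every control library and 52.2 to 52.8% in every induced library. The exact two-sided permutation test of this share gave p = 0.1, the smallest value that 3 against 3 libraries allow.

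B2m, the light chain shared by all class I molecules (ENSMUSG00000060802, chr2:122147686-122153083, plus strand), had the highest level of the 10 genes in both groups. It was read at 448, 428 and 456 CPM in control and at 1433, 1401 and 1600 CPM in induced libraries. The groups were well apart, with a log2 fold change of 1.73 (SE 0.05, adjusted p = 2.42e-15, edgeR). B2m had a smaller fold change than the heavy chains: its FPKM was 3.62 ± 0.0986 times the summed FPKM of H2-K1 and H2-D1 in control and 2.27 ± 0.151 times in induced libraries, a ratio computed after the values had been seen and not tested. On chromosome 2, B2m lies outside the H2 complex, the block of chromosome 17 that holds both heavy chain genes.

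**Figure D1:**
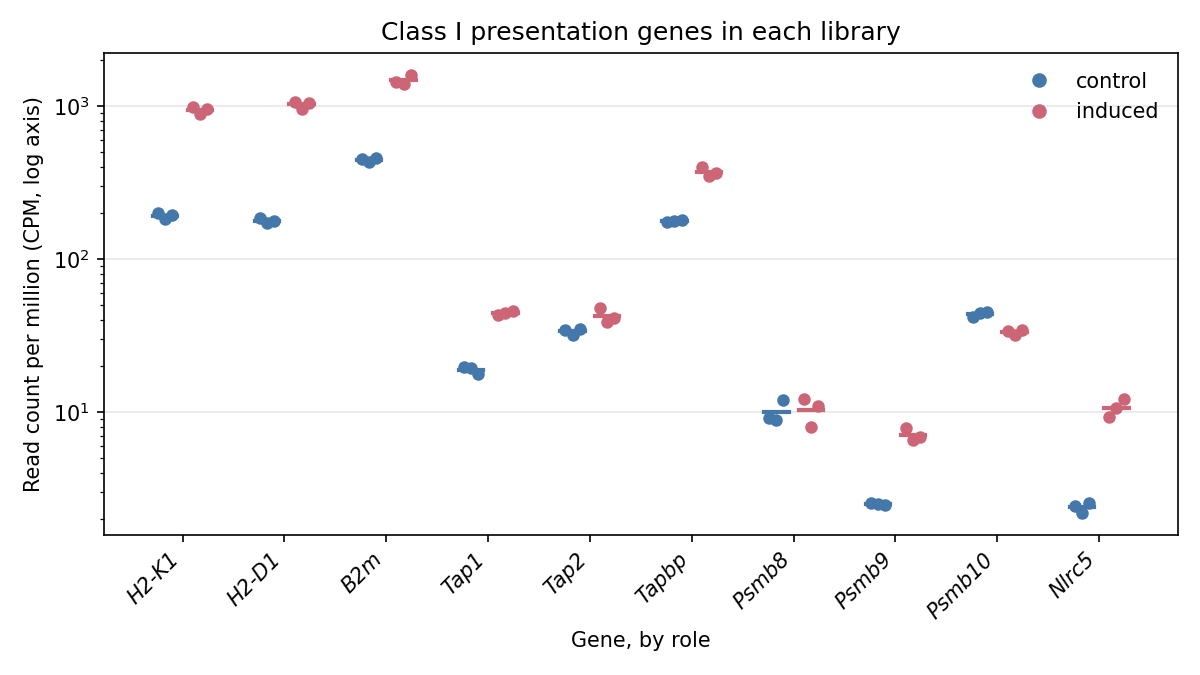
The 10 genes on the x axis, with CPM on a logarithmic y axis; points are libraries (3 control, 3 induced) and short lines are group means. The induced points of 8 genes lie above all control points, those of Psmb10 lie below, from 31.9 to 34.4 CPM against 41.5 to 45.1 CPM, and those of Psmb8 overlap.

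Other genes that could pair with B2m were examined from a list of 19 heavy chain genes of the H2-Q, H2-T and H2-M groups, most of them nonclassical class I genes. Of the 10 that could be tested, 10 were called higher, 6 of them at least 2-fold, and the median log2 fold change was 1.91. Over all tested genes, 32.6% were called higher and 9.29% higher by at least 2-fold. H2-Q1, H2-Q5, H2-Q6 and H2-Q7 had fewer than 10 reads in every control library and passed the filter only through their induced libraries. A higher call was thus nearly fixed in advance for them, and they lift the 2-fold count and the median. The 7 untested genes with an entry had 31 control and 81 induced reads, 49 of the latter in H2-Q2. H2-T23, which encodes Qa-1, a ligand of the NKG2A receptor of natural killer cells, was read at 52.8, 52.2 and 52.7 CPM in control and at 178, 150 and 167 CPM in induced libraries (log2 fold change 1.65, SE 0.06, adjusted p = 6.77e-14, edgeR). H2-Q4 went from 13.6 ± 0.769 to 61.0 ± 1.599 CPM, a log2 fold change of 2.17 (SE 0.07), close in size to those of H2-K1 and H2-D1. Both genes showed no overlap between groups.

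Several H2-Q genes were at or near the limit of detection in control cells and clearly read in induced cells. H2-Q7, a Qa-2 gene, had 3, 6 and 4 reads in control and 142, 124 and 160 reads in induced libraries (log2 fold change 5.05, SE 0.27). H2-Q6, also a Qa-2 gene, had 1 read over all control libraries and 90, 102 and 124 reads in induced libraries, a ratio of 329 with an exact counting interval from 58.7 to 13050 that covers counting error only. H2-Q2 had 0 control reads and 13, 9 and 27 induced reads, did not reach the filter for testing, and was at least 17.03-fold higher against a floor of 3 reads over the control group. The other called genes were H2-Q5 and H2-Q1, with log2 fold changes of 3.83 and 3.26 from 8 and 5 control reads in all, and H2-T22 (0.57), H2-T24 (0.53), H2-T10 (0.50) and H2-M3 (0.23), whose changes were small. With DESeq2, 8 of the 10 were called higher. At an adjusted p of 0.01, or without induced library 3, 7 were. The calls of H2-M3 (adjusted p = 0.0488, edgeR), H2-T10 (adjusted p = 0.0351, edgeR) and H2-T24 (adjusted p = 0.021, edgeR) did not reach 0.01.

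**Figure D2:**
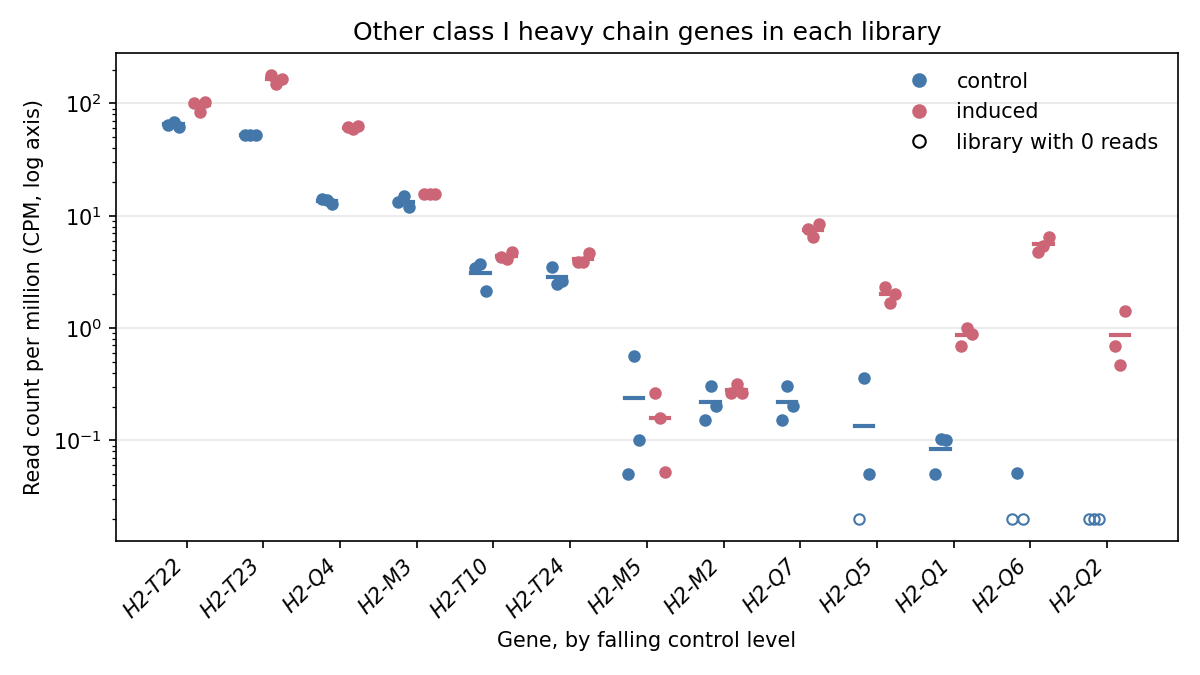
Other class I heavy chain genes with at least 10 reads in all, with CPM on a logarithmic y axis; points are libraries, short lines group means, and open circles libraries with 0 reads, drawn at the bottom of the axis. H2-Q7, H2-Q5, H2-Q1, H2-Q6 and H2-Q2 lie below 1 CPM in every control library and higher in every induced library.

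Reads of these genes are partly interchangeable, because the heavy chains are near copies of each other. In the transcripts of an annotation of the same build (GENCODE M21), 0.957% of all 100-base stretches of H2-K1 and 3.59% of those of H2-D1 were also found in another gene, against 12% for H2-Q7, 10.8% for H2-Q6 and 14.0% for H2-Q5. Assignment among the H2-Q genes is therefore uncertain, the more so as H2-Q8 and H2-Q9 were listed but not found by symbol in the count table. H2-Q1, H2-Q6, H2-Q7 and H2-T23 also shared stretches with H2-D1, and H2-Q5 and H2-Q7 with H2-K1. Some reads of these H2-Q and H2-T genes may thus stem from the far more abundant H2-D1 and H2-K1. Of the other proteins that pair with B2m, Hfe (log2 fold change 0.45), whose product limits iron uptake, and Mr1 (0.41), which presents vitamin B metabolites, rose, whereas Cd1d1 (0.05, adjusted p = 0.798, edgeR) and the neonatal Fc receptor gene Fcgrt (-0.01, adjusted p = 0.855, edgeR) did not pass the test.

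The transporter and its bridge to class I molecules rose unequally. Tap1 (ENSMUSG00000037321, chr17:34187553-34197225, plus strand) was read at 19.6, 19.4 and 17.7 CPM in control and at 42.9, 44.5 and 45.7 CPM in induced libraries. The groups were far apart, with a log2 fold change of 1.23 (SE 0.07, adjusted p = 2.06e-11, edgeR). Tap2, which encodes the other chain of the same transporter (ENSMUSG00000024339, chr17:34203527-34216321, plus strand), was read at 34.4, 31.6 and 34.8 CPM in control and at 47.5, 38.9 and 41.2 CPM in induced libraries. Its groups did not overlap but came near each other, and the log2 fold change was 0.34 (SE 0.07, adjusted p = 5.64e-04, edgeR). Per length, Tap2 stood above Tap1 in both groups, at 8.80 ± 0.469 against 3.42 ± 0.187 FPKM in control and at 11.2 ± 1.19 against 8.08 ± 0.251 FPKM in induced cells. Tapbp (ENSMUSG00000024308, chr17:33915899-33929288, plus strand) was read at 174, 177 and 181 CPM in control and at 398, 352 and 363 CPM in induced libraries. All induced libraries lay above the control libraries, with a log2 fold change of 1.06 (SE 0.05, adjusted p = 2.5e-12, edgeR).

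Genes that supply and trim peptides or fold class I molecules did not move as a block. Of 13 such genes 4 were called higher and 3 lower, none of them higher by 2-fold, and their median log2 fold change was near 0. Neither share was above that of all tested genes, of which 32.6% were called higher and 32.2% lower. The 4 called higher were Erap1 (log2 fold change 0.52), which trims peptides inside the endoplasmic reticulum, and the chaperone genes Canx (0.34), Calr (0.28) and Pdia3 (0.16). The genes that fell were Thop1 (-1.13, SE 0.07), a cytosolic peptidase that destroys peptides, Lap3 (-0.52), an aminopeptidase, and Psme1 (-0.16), a subunit of the proteasome activator PA28. Psme2, which encodes its partner subunit, had a log2 fold change of 0.02 with a wide error (SE 0.18).

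**Figure D3:**
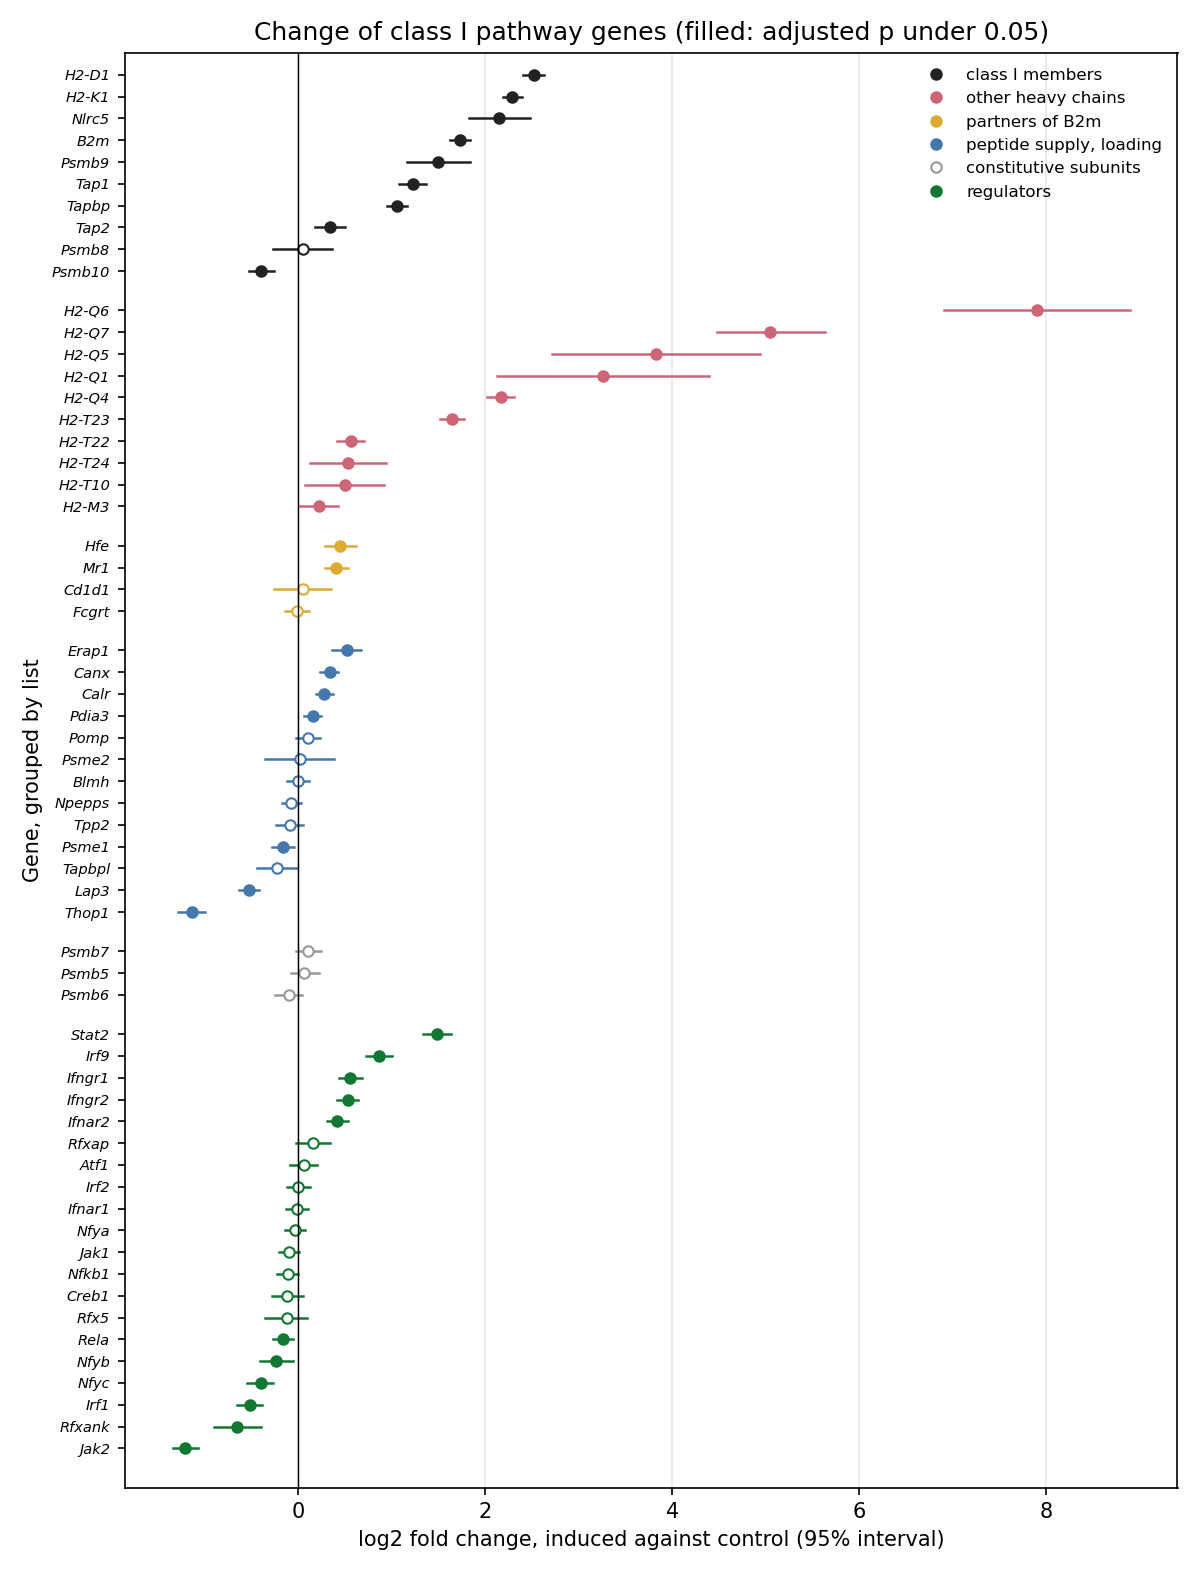
Log2 fold changes of induced against control cells on the x axis for tested genes grouped by list; lines are 95% intervals and filled points passed an adjusted p of 0.05. H2-K1, H2-D1, B2m and Nlrc5 lie between 1.73 and 2.52, the peptide supply and loading genes lie between -1.13 and 0.52, and the regulators are spread to both sides, from Stat2 (1.49) to Jak2 (-1.21).

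The 3 inducible proteasome subunit genes gave 1 higher call, 1 lower call and 1 that did not pass the test. Each of them takes the place of a constitutive catalytic subunit when an immunoproteasome is built: PSMB8 that of PSMB5, PSMB9 that of PSMB6, and PSMB10 that of PSMB7. Psmb9 (ENSMUSG00000096727, chr17:34181988-34187764, minus strand) was read at 2.53, 2.50 and 2.46 CPM in control and at 7.87, 6.52 and 6.87 CPM in induced libraries. These values rest on 49 to 50 reads per control library and 124 to 148 per induced library, and the groups were apart (log2 fold change 1.50, SE 0.16, adjusted p = 1.64e-07, edgeR). Psmb8 (ENSMUSG00000024338, chr17:34197721-34201454, plus strand) was read at 9.12, 8.87 and 12.02 CPM in control and at 12.1, 7.94 and 11.0 CPM in induced libraries. The libraries of both groups were mixed, and the log2 fold change was 0.05 with a 95% interval from -0.27 to 0.36 (adjusted p = 0.8, edgeR). Psmb10 (ENSMUSG00000031897, chr8:105935735-105938444, minus strand) was read at 41.5, 44.6 and 45.1 CPM in control and at 33.8, 31.9 and 34.4 CPM in induced libraries. Every induced library was below every control library, and the log2 fold change was -0.39 (SE 0.06, adjusted p = 2.34e-05, edgeR).

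The constitutive counterparts gave 0 calls out of 3 in edgeR and in DESeq2, and 0 at an unadjusted p under 0.05. Their log2 fold changes were 0.07 for Psmb5, -0.10 for Psmb6 and 0.11 for Psmb7 (adjusted p = 0.355, 0.203 and 0.128, edgeR). Without induced library 2, which had the lowest level of the induced group for all 3 of these genes and for 8 of the 10 class I genes, Psmb5 (0.16) and Psmb7 (0.19) were called higher. Set against its counterpart in FPKM, Psmb9 went from 1.10 ± 0.0557% to 3.36 ± 0.252% of Psmb6, and Psmb10 from 117 ± 8.17% to 82.6 ± 4.62% of Psmb7, both without overlap and with p = 0.1 in the exact two-sided permutation test, the smallest possible. Psmb8 was at 3.55 ± 0.629% of Psmb5 in control and 3.47 ± 0.394% in induced cells (p = 0.9, exact permutation test). Psmb10 was thus near the level of its counterpart in both groups, whereas Psmb8 and Psmb9 were a small fraction of theirs, also after induction.

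**Figure D4:**
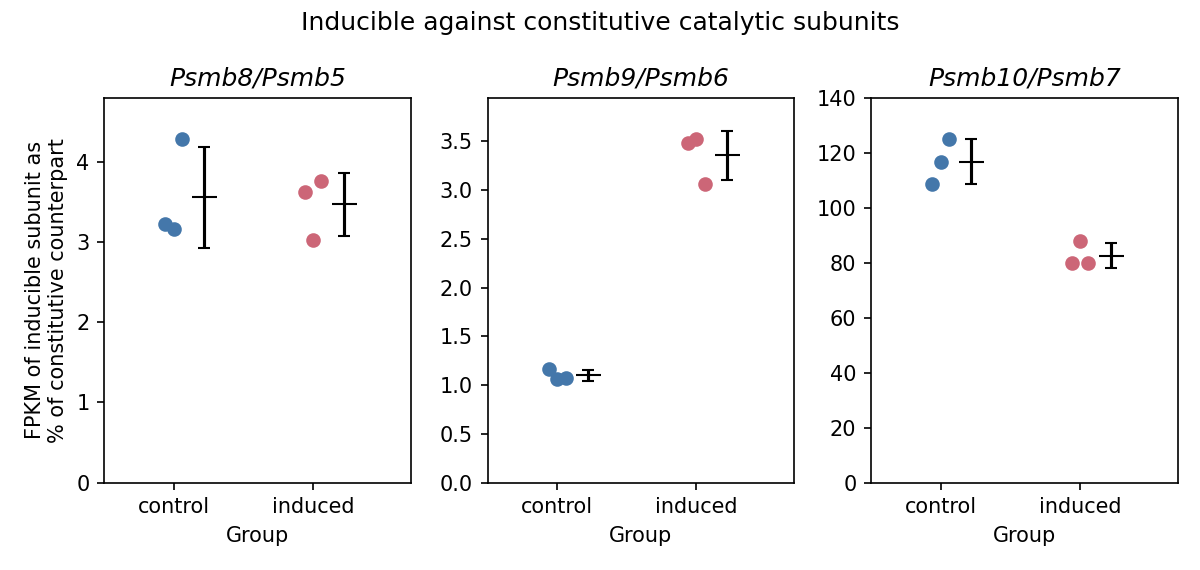
FPKM of each inducible catalytic subunit as a percentage of the FPKM of its constitutive counterpart, by group, in 3 panels with axes from 0; points are libraries and black marks are mean and SD of 3. Psmb9 against Psmb6 rose in every induced library, Psmb10 against Psmb7 fell, and Psmb8 against Psmb5 overlapped.

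Nlrc5, the class I transactivator (ENSMUSG00000074151, chr8:94434356-94527272, plus strand), was the least abundant of the 10 genes per length, at 0.279 ± 0.0221 FPKM in control and 1.26 ± 0.171 FPKM in induced cells. It was read at 2.43, 2.19 and 2.56 CPM in control and at 9.25, 10.6 and 12.2 CPM in induced libraries, from 43 to 51 and from 174 to 232 reads. The groups did not overlap, and the log2 fold change was 2.15 (SE 0.16, adjusted p = 7.37e-10, edgeR), between those of B2m and H2-K1. None of the 8 listed genes for the proteins that NLRC5 joins on promoters was called higher: Rfxank fell (-0.65), as did Nfyc (-0.40) and Nfyb (-0.23), while Rfx5 (-0.12), Rfxap (0.16), Nfya (-0.03), Creb1 (-0.12) and Atf1 (0.06) did not pass the test. Over all tested genes, 32.6% were called higher and 32.2% lower.

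On the interferon side, of 20 regulators, these promoter-bound proteins included, 5 were called higher, 6 lower and 9 were not called, with a median log2 fold change of -0.07. Neither share was above that of all tested genes, of which 32.6% were called higher and 32.2% lower. The number called lower ran from 4, at an adjusted p of 0.01 or without control library 1 or 3, to 8, with library totals alone or without induced library 2, and the falls of Nfyb (adjusted p = 0.0271, edgeR) and Rela (adjusted p = 0.0119, edgeR) did not reach 0.01. Stat2, a signal transducer of type I interferons, was read at 29.1, 28.9 and 33.4 CPM in control and at 81.9, 80.2 and 94.3 CPM in induced libraries. The groups did not overlap (log2 fold change 1.49, SE 0.07, adjusted p = 2.36e-12, edgeR). Irf9 (0.87), the DNA-binding partner of STAT2, rose as well, as did the receptor genes Ifngr1 (0.56), Ifngr2 (0.53) and Ifnar2 (0.42). In contrast Jak2, a kinase of the interferon gamma receptor, fell by 1.21 on the log2 scale (SE 0.07), and Irf1, an activator of class I and immunoproteasome promoters, fell by 0.51 (SE 0.06). Rela, a subunit of NF-kB, fell by 0.16. The interferon genes that were listed were hardly read: over these 11 genes there were 0 reads in control and 4 in induced libraries, and none could be tested. Of the Ifna genes only Ifna1, Ifna2, Ifna4 and Ifna5 were on the list, and others were not looked up.

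Class II presentation, for comparison, was at the limit of detection for most genes. Of 10 listed genes 3 could be tested; H2-DMb1 (log2 fold change 1.26) and Cd74 (1.08) rose and H2-DMa (0.10) did not pass the test. Ciita, the class II counterpart of Nlrc5, had 13 reads over the control and 29 over the induced libraries. With no filter on low counts, 4 were called higher, now with H2-Aa and H2-Ab1, which had 16 and 18 reads over the induced libraries.

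Where the genes lie was compared with how they moved, over the 1.35 Mb of chromosome 17 from the start of Tapbp to the end of H2-D1, a stretch chosen after the values had been seen. Of the 7 class I genes in it, 6 were called higher. Of the 52 tested genes in between that are in neither presentation list, H2-K2 (0.96), a relative of H2-K1, included, 11 (21.2%) were called higher and 24 lower, with a median log2 fold change of -0.18. The shares over all tested genes were 32.6% called higher and 32.2% called lower. Within one short stretch the order along the chromosome was Psmb9, Tap1, Psmb8 and Tap2, with log2 fold changes of 1.50, 1.23, 0.05 and 0.34. Some neighbours of other function also rose, among them Ager (3.22), the largest rise in the 1.35 Mb, and the complement genes C2 (2.31) and C4b (1.17). The complement gene C4a (-0.18, adjusted p = 0.743, edgeR) did not pass the test. The annotation puts exons of Psmb9 and Tap1 on opposite strands of the same bases over 5.79% of the exon bases of Psmb9 and 3.87% of those of Tap1. Exons of other genes covered 18.5% of Tap2, 14.7% of Psmb8 and 29.0% of Tapbp, and whether the counting used strand was not given in the sources used here.

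**Figure D5:**
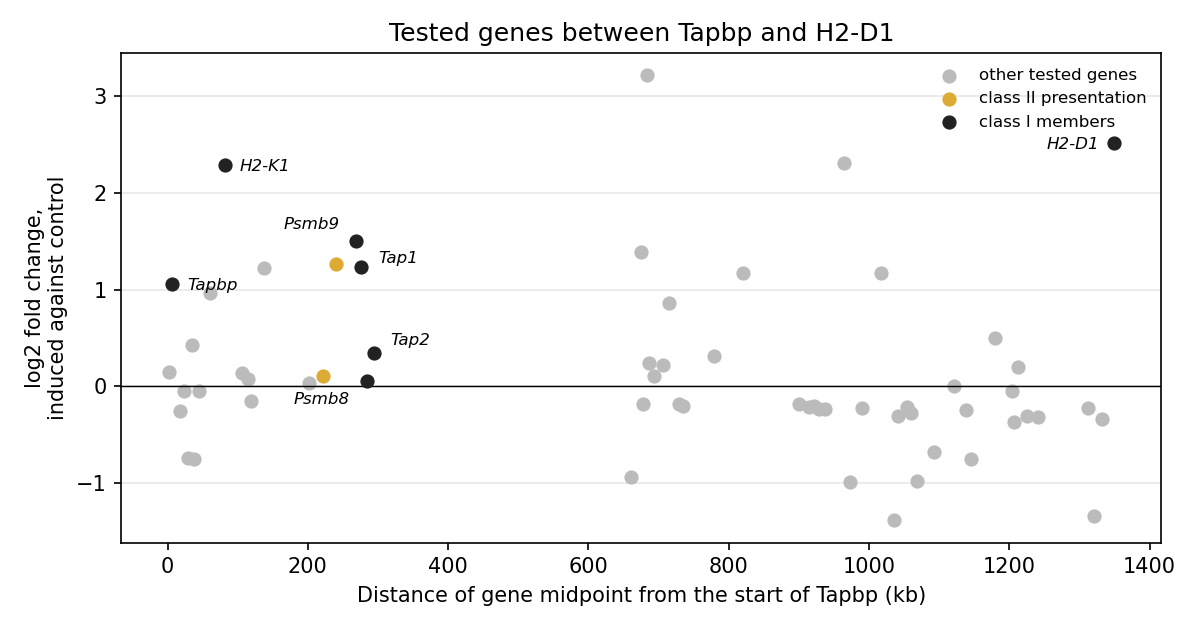
Log2 fold change of each tested gene against the distance of its midpoint from the start of Tapbp in kb. H2-K1, H2-D1, Psmb9, Tap1 and Tapbp lie above 1, Psmb8 and Tap2 lie near 0 between them, and most other genes lie at or below 0.

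Markers of other cells were read beside these results, since leukocytes carry much class I RNA. Of 12 leukocyte markers, Ptprc, Cd52, Tyrobp, Itgam, Adgre1, Cd3e and Klrk1 were at 0 reads in all 6 libraries, and the summed level went from between 27.3 and 30.3 CPM in control to between 50.9 and 58.7 CPM in induced libraries. The members of that list that rose were Cd68, a lysosomal protein gene (log2 fold change 3.89), and Lyz2, the lysozyme gene (1.96), while Csf1r fell (-1.05). Endothelial markers summed to at most 0.507 CPM in control and 0.943 CPM in induced libraries. The part of Cd68 and Lyz2 in the class I result was not tested. All 9 markers of cardiosphere-derived and epicardial cells were read in both groups, 6 called higher and 3 lower in induced cells. Over all tested genes, 32.6% were called higher and 32.2% lower. Upk3b (1.89), Tcf21 (1.49), Wt1 (1.34), Col3a1 (0.70), Thy1 (0.54) and Eng (0.12) rose, while Pdgfra (-0.73), Ly6a (-0.57) and Tbx18 (-0.33) fell. The 5 genes whose profile over the 6 libraries lay nearest to the mean profile of the 10 class I genes were Gprc5a, Ctsd, Sema3f, Ctsf and Slc48a1, at distances of 0.0723 to 0.0916 on the centred log2 CPM scale, with log2 fold changes from 1.17 to 1.22.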

How the data were processed

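RNA of 3 control and 3 induced samples of one cell line was sequenced, with 19041133 to 19823369 counted reads per library, so that a floor of 3 reads was 0.15 to 0.159 CPM. The authors deposited one table for mm10 with raw read counts, FPKM and a gene length per gene, and per the labels the submitters' processing notes name HISAT2 2.0.5, featureCounts 1.5.0-p3 and DESeq2 1.16.1. Strand setting and annotation release were not given in the sources used here. The authors' own comparison columns and enrichment tables hold their findings and were not used.

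Counts were tested in R 4.3.3 with edgeR 4.0.16 (TMM, filterByExpr with a minimum count of 10 and total of 15, quasi-likelihood, two-sided, Benjamini-Hochberg at 0.05) over 14246 genes, without covariates. SEs were the log2 fold change divided by the root of F. Alternatives were DESeq2 1.42.0, other scalings and filters, limma 3.58.1 on log2(FPKM + 1) or with a pseudocount of 0.1, a replicate block and leaving out each library. Scripts were tested on simulated data. Within-group libraries differed by more than sampling noise (chi-square per degree of freedom 2.56 to 8.91). Levels of different genes were compared in FPKM. Sequences came from RefSeq (GRCm38.p6), which shares its coordinates with mm10. GENCODE M21 gave 98.3% of the table's genes that it holds the same coordinates.

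The genes and lists were chosen with earlier results of these data known. Named were all 10 class I genes, the constitutive subunits, up to 5 genes of smallest p per list, counted groups of 5 or fewer, and the 5 nearest profiles. The further regulators, the remaining heavy chain genes, Psme2, Ciita, H2-Aa, H2-Ab1, the markers, H2-K2, Ager, C2, C4a and C4b were named after their values were seen. Results for 1 gene of the regulator list are not reported here, and the counts of that list are given without it.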

Additional observations from a re-analysis of the deposited data

How the results depend on the processing

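Over 150 values of the 10 genes under the alternatives, 150 kept the direction of a called value and their side of the threshold. The alternative at an adjusted p of 0.01 used the main fit itself, so there only the threshold differed and the direction could not change. Psmb8, never called, ranged from -0.08 to 0.21. The count of genes called over the table was 9225 and ranged from 7783 at an adjusted p of 0.01 to 9765 with no filter. Of the 10 genes 7 were higher by at least 2-fold, except with limma on log2(FPKM + 1), where 5 were, since that pseudocount shrinks low values: Nlrc5 fell to 0.82 and Psmb9 to 0.81. With library totals alone the share of calls that were higher was 46.5%, against 50.3%. Leaving out 1 library at a time, the constitutive subunits called higher ranged from 0 to 2, with 2 without induced library 2. With no filter, 4 class II genes were called higher, against 2. With a replicate block 9063 genes were called and no call of the 10 genes changed. The replicate numbers did not pair the samples, since deviations of same-numbered samples correlated at -0.05, -0.04 and 0.04. Of the 10 genes, Nlrc5 and Psmb9 had the fewest reads, at most 51 per control library, and several genes outside the 10, such as most H2-Q and class II genes, had fewer.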
